A study of Mus musculus with 8 samples.

Results

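The 8 genes described here encode parts of the caspase cascade and the cytochrome c apoptosome, and were followed in hematopoietic stem cells (HSCs) with and without an induced Mitol deletion: the initiator caspases Casp2, Casp8 and Casp9, the executioner caspase Casp6, the apoptosome core genes Apaf1 and Cycs, and Diablo and Xiap of the inhibitor of apoptosis (IAP) system. They were taken by gene symbol, and all 8 of 8 were found among the 22065 named genes of the count table and passed the filter on low counts, which 16444 genes passed. Lineage-negative HSCs that were CD150+, EPCR+ and CD48- were isolated by sorting bone marrow of C57BL/6 mice of 8 to 10 weeks of age, 100 cells per library, 1 week after Poly:IC, with 4 libraries per group. MitolΔ/Δ HSCs came from Mitol Flox/Flox; MX1-cre +/- mice, in which Poly:IC switches on Cre through the interferon-inducible Mx1 promoter in blood cells and in other tissues that answer interferon, and control HSCs came from Mitol Flox/Flox; MX1-cre -/- mice that carried the same floxed alleles and also received Poly:IC. The libraries were numbered 1 to 4 in each group, and whether each came from a separate mouse was not given in the sources used here, so the p-values below measure the spread between libraries.

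Caspases are proteases that are made as inactive precursors and cut their targets after an aspartate. In the mitochondrial pathway, cytochrome c that leaves the space between the mitochondrial membranes binds Apaf1, and the assembled wheel, the apoptosome, activates Casp9, which then cuts the executioner caspases. Casp8 is the initiator downstream of death receptors, and Casp2 is activated in a complex named the PIDDosome. Xiap binds and blocks Casp9 and executioner caspases, and Diablo, released from mitochondria together with cytochrome c, takes Xiap off them. Activation of these proteins is set by release, assembly and cleavage, none of which mRNA counts record. Mitol, also known as Marchf5, encodes a ubiquitin ligase of the mitochondrial outer membrane, where the BCL2 family controls that release.

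Short coding signatures of 2 kinds are shown, for genes chosen in advance. The first was searched only in the 4 caspases, and the second only in Casp9 and Diablo. The first is the codon of the catalytic cysteine, in capitals in the lines that follow, within 33 coding bases of the GENCODE canonical transcript on GRCm39. The caa or cag codon that opens the searched motif, ahead of the cysteine, is codon 318 of Casp2, codon 360 of Casp8, codon 323 of Casp9 and codon 144 of Casp6. The second is the stretch of 4 codons by which Casp9 (from codon 354) and Diablo (from codon 54) dock to the same pocket of Xiap, also in capitals. The lines give coding sequence after splicing, so the span of Casp2 (exons 8 and 9 of 11), Casp6 (exons 5 and 6 of 7), the catalytic span of Casp9 (exons 6 and 7 of 9) and that of Diablo (exons 2 and 3 of 8) cross an intron, whereas the Casp8 span lies in exon 8 of 9 and the docking span of Casp9 in exon 7.
Casp2, chr6:42253695-42256718, plus strand: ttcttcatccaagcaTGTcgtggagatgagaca
Casp8, chr1:58883763-58883795, plus strand: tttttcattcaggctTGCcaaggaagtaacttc
Casp9, chr4:141534549-141538857, plus strand: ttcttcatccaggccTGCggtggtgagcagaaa
Casp6, chr3:129704336-129705787, plus strand: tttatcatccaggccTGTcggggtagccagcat
Casp9, docking codons, chr4:141538918-141538950, plus strand: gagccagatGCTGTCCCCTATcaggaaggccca
Diablo, docking codons, chr5:123658230-123661344, minus strand: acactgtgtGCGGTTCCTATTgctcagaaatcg

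The libraries held 7214935 to 12398138 counts on named genes, of which 3969 to 8769 fell on the 8 genes together. Values are given as normalized counts, the deposited count divided by the size factor of the library. Marchf5, the targeted gene, was at 276, 232, 308 and 281 normalized counts in MitolΔ/Δ libraries 1 to 4 and at 299, 312, 333 and 262 in control libraries 1 to 4. The groups overlapped (log2 fold change -0.15, SE 0.13, adjusted p = 0.498), so the counts summed over this gene do not check the labels, and which exons are deleted is not given in the sources used here. Cpeb3, also among the named genes, overlaps 1540 bases of Marchf5 on the opposite strand, which the library kit does not tell apart. Of the HSC markers Procr, Slamf1, Hlf, Mecom, Fgd5, Hoxb5 and Kit, all 7 were detected and their summed level was 17741 to 21639 in MitolΔ/Δ libraries against 26326 to 31659 in control libraries, with Hlf and Kit lower (log2 fold changes -0.79 and -0.75, adjusted p = 0.0038 and 0.0070). Kit and Hlf also had the largest control means of the 7 (11706 and 9505), so they weigh most in the sum. Slamf1, the gene of CD150, went the other way, with every MitolΔ/Δ library above every control library. Its log2 fold change was 0.56 (edgeR adjusted p = 0.0501, DESeq2 adjusted p = 0.0117). Cd48, which the gate excluded, was near 0 in control libraries (4.49 to 21.7) and at 22.2 to 63.4 in MitolΔ/Δ libraries (log2 fold change 1.72, adjusted p = 0.045), a call that held in 2 of 8 fits that left out a library, those without MitolΔ/Δ library 4 or control library 3 (adjusted p up to 0.138 in the others). Since these are bulk libraries, a different mixture of cells and a different amount of RNA per cell cannot be told apart.

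Among the 8 genes, Cycs, the somatic cytochrome c gene, rose 2.24-fold in MitolΔ/Δ HSCs, and the other 7 did not pass the test. The comparison asked whether these genes of the caspase cascade and the apoptosome differed in transcript level after Mitol deletion. With p-values from edgeR's quasi-likelihood fit, adjusted by Benjamini-Hochberg over 16444 genes, 1 of 8 members was higher at an adjusted p under 0.05 and 0 of 8 were lower, where 8.43% of all tested genes passed in either direction, 4.68% higher and 3.75% lower. At an unadjusted p under 0.05 there were 3 of 8 members (Cycs, Casp8 and Apaf1), all higher, against 26.4% of all tested genes. Of the 8 genes, 6 had a log2 fold change above 0, as did 47.7% of tested genes, and the median log2 fold change of the members was 0.09 against -0.02 for all tested genes. In 2 of 8 members, Cycs and Casp8, every MitolΔ/Δ library lay above every control library, which held for 8.17% of tested genes, and in 0 of 8 every MitolΔ/Δ library lay below, which held for 7.18%. DESeq2 called 2 of 8 members, Cycs and Casp8, both higher, where it called 14% of its tested genes.

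**Figure D1:**
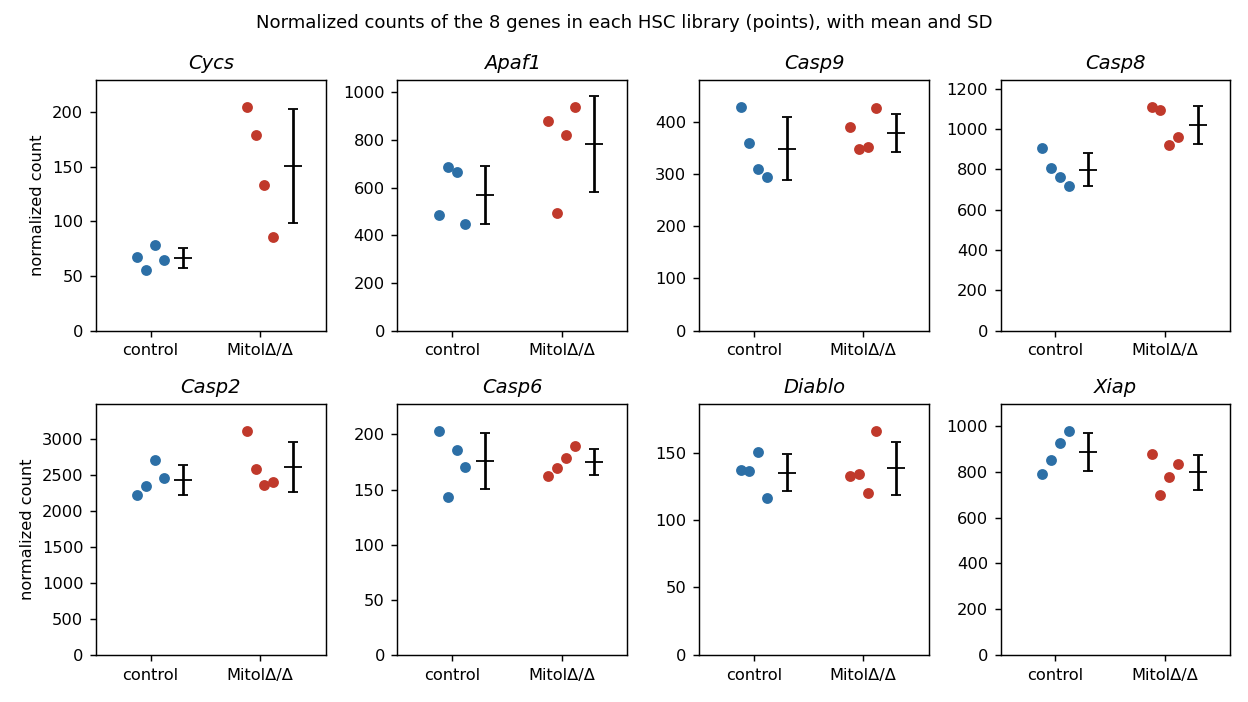
Normalized counts of the 8 genes, 1 panel per gene, with 1 point per library and the mean and SD of the 4 libraries at the right of each group. The vertical axes start at 0 and differ between panels. Only for Cycs and Casp8 do the points of the groups not overlap, and the Cycs points of MitolΔ/Δ libraries spread from 85.7 to 205.

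Cycs encodes the small heme protein that carries electrons between respiratory complexes III and IV and, once outside the mitochondrion, nucleates the apoptosome. It lies at chr6:50539541-50543557 on the minus strand (GRCm39). Its normalized count was 205, 179, 134 and 85.7 in MitolΔ/Δ libraries 1 to 4 and 67.3, 55.3, 78.2 and 64.7 in control libraries 1 to 4. All 4 MitolΔ/Δ libraries lay above the highest control library, library 4 by the smallest margin. The means were 151 ± 52.5 and 66.4 ± 9.40 (SD, n = 4 each), a log2 fold change of 1.16 (SE 0.26, 95% interval 0.60 to 1.73, edgeR adjusted p = 0.0217), or 2.24-fold with an interval of 1.52 to 3.31. The exact 2-sided permutation test on the normalized counts gave p = 0.0286, the smallest p that 4 against 4 libraries allow. Relative to its mean, Cycs varied most of the 8 genes among MitolΔ/Δ libraries, with a coefficient of variation of 34.8% against 14.2% among control libraries. Leaving out 1 library kept the direction (log2 fold change 0.98 to 1.38), but the call was lost without MitolΔ/Δ library 1 (adjusted p = 0.0606) or 2 (0.0618) and without control library 2 (0.0692) or 4 (0.0581). The exact p stayed at 0.0286 without any 1 MitolΔ/Δ library and was 0.0571 without any 1 control library.

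The order of the libraries in Cycs was set beside markers of cycling cells. The summed level of 19 proliferation genes was 35694, 36748, 25774 and 17843 in MitolΔ/Δ libraries 1 to 4, and 15626, 13029, 16730 and 11436 in control libraries 1 to 4. All 19 were higher in MitolΔ/Δ HSCs and 15 passed the test, against 47.7% and 4.68% of all tested genes. The 15 were led by Rrm2, a subunit of the enzyme that makes deoxynucleotides (log2 fold change 2.18, adjusted p = 0.0034), Tpx2, a spindle assembly factor (1.67, 0.012), and the cyclin gene Ccna2 (1.90, 0.012). Libraries 1 and 2 of the MitolΔ/Δ group were highest and library 4 lowest in both Cycs and this sum, and the part of cycling cells in the Cycs difference was not tested.

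**Figure D2:**
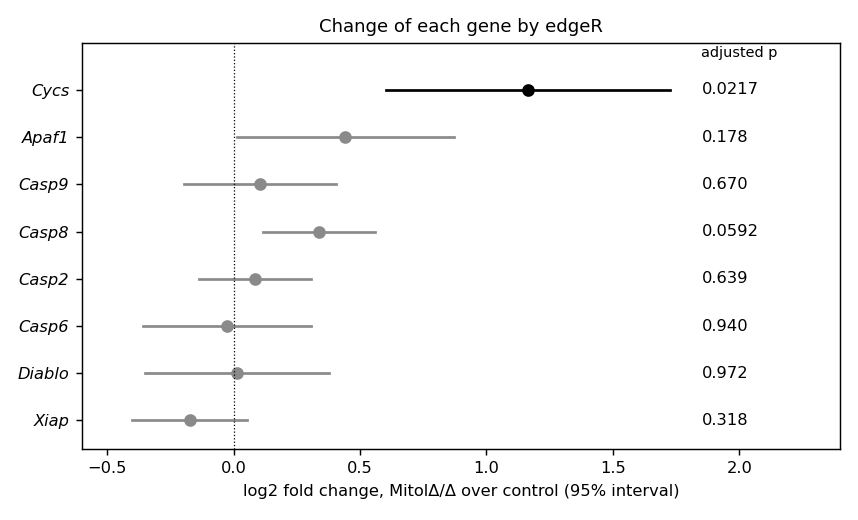
Log2 fold change of each of the 8 genes in MitolΔ/Δ over control HSCs by edgeR (points) with its 95% interval (lines), 4 libraries per group, with the adjusted p at the right. Cycs, in black, is the gene past the threshold at 1.16, whereas the intervals of Casp9, Casp2, Casp6, Diablo and Xiap include 0.

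Apaf1, the scaffold that cytochrome c turns into the apoptosome (chr10:90825173-90918686, minus strand), was at 878, 492, 821 and 940 normalized counts in MitolΔ/Δ libraries and at 484, 684, 663 and 447 in control libraries. MitolΔ/Δ libraries 1, 3 and 4 lay above all control libraries, and library 2 lay within their range. The means were 783 ± 200 and 570 ± 121 (SD, n = 4 each), with a log2 fold change of 0.44 (SE 0.20, interval 0.01 to 0.87) that did not pass after adjustment (edgeR adjusted p = 0.178, exact permutation p = 0.114). Without MitolΔ/Δ library 2 the exact permutation p was 0.0286 and the edgeR adjusted p 0.0553, and without any 1 of the other 7 libraries they were 0.114 to 0.286 and 0.178 to 0.375.

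Casp9, the initiator caspase that the apoptosome recruits (chr4:141520923-141546508, plus strand), was at 389, 348, 351 and 425 in MitolΔ/Δ libraries and at 429, 360, 310 and 295 in control libraries. The groups overlapped throughout, with means of 378 ± 36.5 and 348 ± 60.4 (SD, n = 4 each). The log2 fold change was 0.10 (SE 0.14, edgeR adjusted p = 0.670, exact permutation p = 0.457), and its interval of -0.19 to 0.40 leaves room for a fold between 0.87 and 1.32. Thus, of the trio that forms the active apoptosome, Cycs was the member that passed the test. Whether the Cycs change differed from the Apaf1 or Casp9 change was not tested.

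Casp8, the initiator caspase of death receptor complexes (chr1:58834375-58886665, plus strand), was at 1112, 1094, 919 and 962 in MitolΔ/Δ libraries and at 909, 808, 764 and 717 in control libraries. The groups did not overlap, although MitolΔ/Δ library 3 and control library 1 were close to each other. The means were 1022 ± 95.9 and 799 ± 81.9 (SD, n = 4 each), a log2 fold change of 0.34 (SE 0.10, interval 0.12 to 0.56) or 1.26-fold. It stood at the edge of the threshold, with an adjusted p of 0.0592 by edgeR and 0.0220 by DESeq2 and an exact permutation p of 0.0286, and by edgeR it passed without MitolΔ/Δ library 4 (0.0361) or without control library 1 (0.0395). The exact p was 0.0571 when any library other than MitolΔ/Δ library 3 or control library 1 was left out. An unspecified transcript, Gm37760, overlaps Casp8 on the same strand and has its own row in the table, so reads in the shared part are uncertain.

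Casp2, the initiator caspase of the PIDDosome (chr6:42241918-42259443, plus strand), was at 3105, 2575, 2358 and 2396 in MitolΔ/Δ libraries and at 2214, 2343, 2702 and 2448 in control libraries. MitolΔ/Δ library 1 was the highest of all 8 and the other libraries were interleaved. The means were 2609 ± 344 and 2427 ± 207 (SD, n = 4 each), and the log2 fold change was 0.09 (SE 0.10, interval -0.14 to 0.31, edgeR adjusted p = 0.639, exact permutation p = 0.457). Without MitolΔ/Δ library 1 it was -0.0044.

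Casp6, the one executioner among the 8 genes, which cuts nuclear lamins among other targets (chr3:129695069-129707752, plus strand), was at 162, 169, 179 and 189 in MitolΔ/Δ libraries and at 203, 144, 186 and 171 in control libraries. The MitolΔ/Δ values lay inside the control range. The means were 175 ± 11.8 and 176 ± 25.2 (SD, n = 4 each), with a log2 fold change of -0.025 (SE 0.15, interval -0.36 to 0.31, edgeR adjusted p = 0.940, exact permutation p = 0.971). Mcub, also among the named genes, overlaps 328 bases of Casp6 on the opposite strand. The library kit does not mark strand, so reads in that part are uncertain.

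Diablo, the mitochondrial antagonist of IAPs (chr5:123647828-123662239, minus strand), was at 133, 134, 120 and 166 in MitolΔ/Δ libraries and at 137, 136, 151 and 117 in control libraries. The groups overlapped, with means of 138 ± 19.6 and 135 ± 14 (SD, n = 4 each) and a log2 fold change of 0.013 (SE 0.17, interval -0.35 to 0.38, edgeR adjusted p = 0.972, exact permutation p = 0.886). Its level is uncertain, because nearly all of the gene lies within a same-strand protein-coding locus, Gm49027, that has its own row in the table. Gm15751, also among the named genes, overlaps 4247 bases of Diablo on the opposite strand, which the library kit does not tell apart.

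Xiap, the caspase inhibitor (chrX:41148481-41198541, plus strand), was at 879, 700, 777 and 833 in MitolΔ/Δ libraries and at 791, 851, 926 and 979 in control libraries. The control libraries reached higher and MitolΔ/Δ library 2 was the lowest, but the groups overlapped. The means were 797 ± 76.8 and 887 ± 82.5 (SD, n = 4 each), with a log2 fold change of -0.17 (SE 0.10, interval -0.40 to 0.055, edgeR adjusted p = 0.318, exact permutation p = 0.171). The balance of antagonist to inhibitor was taken within each library as the log2 ratio of Diablo to Xiap counts, which needs no scaling between libraries. It averaged -2.53 ± 0.21 in MitolΔ/Δ and -2.71 ± 0.24 in control libraries (SD, n = 4 each), a difference of 0.18 that the exact permutation test did not separate from the spread (p = 0.314).

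Levels were compared between genes per kilobase of all annotated exons, on CPM, the count scaled to the total of its library. On this scale Casp2 and Casp8 were the most abundant in control HSCs (35.6 ± 3.07 and 27.6 ± 2.76, SD, n = 4 each) and stood well above Xiap (9.57 ± 0.92). Apaf1 (5.73 ± 1.21), Casp9 (4.51 ± 0.77) and Casp6 (3.35 ± 0.48) followed, and neighbours in this order overlapped within their SD. Diablo (2.30 ± 0.23) and Cycs (1.81 ± 0.26) were the least abundant. In MitolΔ/Δ HSCs Cycs reached 4.05 ± 1.39, between Casp9 (4.84 ± 0.47) and Casp6 (3.29 ± 0.24), with an SD that reached both. With the length of the canonical transcript in place of all exons, Casp2, Casp8 and Xiap remained the first 3 and Diablo and Cycs the last 2 in control HSCs, while Casp6, at 12.8, moved above Casp9 (9.52) and Apaf1 (9.14). The control level of Cycs per kilobase of all exons was below that of each of the 10 genes for its respiratory partners (4.78 for Cox5a to 30.0 for Uqcrc1). How reads that match more than 1 copy of the Cycs coding sequence were counted is not given in the sources used here, and the 2 pseudogenes that the annotation names for Cycs have no row in the table.

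The nearest genes to Cycs by their pattern over the 8 libraries (Pearson's r of log2 CPM, a description over libraries that include both groups) were Timm50 (r = 0.996), a subunit of the inner membrane import channel, Alg8 (0.993), a glycosyltransferase of the endoplasmic reticulum, and Vdac1 (0.992), the main channel of the mitochondrial outer membrane. Casp8 was most like Lamc1 (0.989), a laminin chain, Psmb4 (0.988), a proteasome subunit, and Ift140 (0.982), a ciliary transport protein. For Casp2 they were Kctd10, Sco1 and Gm43375 (0.944 to 0.960), for Casp9 Iqce, Txndc12 and Tmem94 (0.938 to 0.955), and for Casp6 Ccdc167, Zfat and Gm18899 (0.920 to 0.947). For Apaf1 they were Gm38115 (0.981) and Stk17b (0.965), for Diablo Ythdc1, Rnf213 and Pomk (0.939 to 0.947), and for Xiap Zfp799, Mapk9 and Susd4 (0.967 to 0.983). Among the 8 genes themselves, Casp8 and Cycs had the highest r over the same libraries (0.83), and Casp8 and Xiap the lowest (-0.73).

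Other genes of the pathway were counted from lists by role. Of 77 listed genes, 67 were tested, and 11 were higher and 0 lower at the threshold, where 4.68% of all tested genes were higher and 3.75% lower, with a median log2 fold change of 0.26 against -0.02 for all tested genes. The lists did not share 1 order of the MitolΔ/Δ libraries. The death receptor list summed to 6982, 7095, 9103 and 9700 in MitolΔ/Δ libraries 1 to 4, so libraries 1 and 2 were the lowest. In the proliferation sum given above and in the respiratory partners below, the same 2 libraries were the highest. The part of cycling cells in these counts was not tested. The count of 11 ranged from 1 without control library 2 to 22 without MitolΔ/Δ library 4, and was 4 and 3 without MitolΔ/Δ libraries 1 and 2, and 5 and 4 without control libraries 3 and 4. At an unadjusted p under 0.05, 31 of the 67 were higher and 5 lower, against 26.4% of all tested genes in either direction. DESeq2, which called 14% of its tested genes, called 19 of the 67 higher and 3 lower, the lower ones being Naip5 and Septin4 of the IAP list and the BH3-only gene Bmf, which the rule for named genes did not cover.

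**Figure D3:**
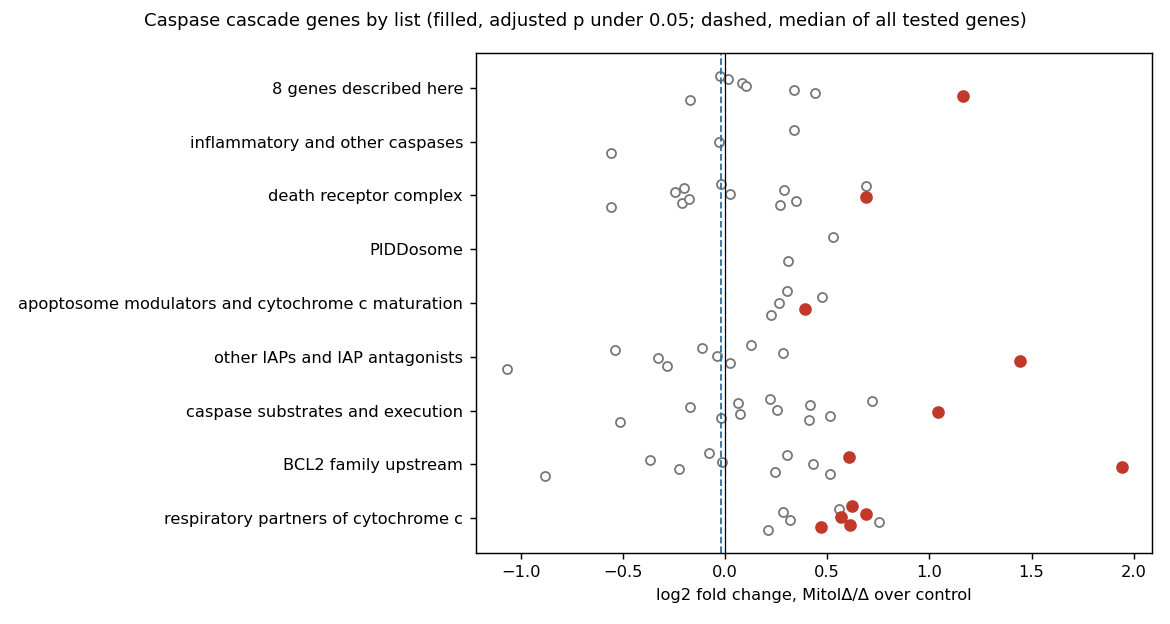
Log2 fold change of each tested gene of the lists shown, in MitolΔ/Δ over control HSCs by edgeR, 1 row per list, with filled points for an adjusted p under 0.05 and open points for the rest. The dashed line marks the median of all tested genes at -0.02. The filled points all lie to the right of 0, and 5 of the 12 belong to the respiratory partners of cytochrome c.

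The respiratory partners of cytochrome c, subunits of complex III that reduce it and of complex IV that oxidize it, were all 10 higher and 5 of 10 passed the test, with a median log2 fold change of 0.56. Over all tested genes, 47.7% had a log2 fold change above 0 and 4.68% were higher at the threshold. Cox7a2 of complex IV was at 668, 610, 582 and 527 normalized counts in MitolΔ/Δ libraries and at 473, 335, 361 and 295 in control libraries, so the groups did not overlap (log2 fold change 0.69, edgeR adjusted p = 0.0177). The complex III subunit genes Uqcrc1 (0.47, adjusted p = 0.0264), Uqcrh (0.57, 0.0270) and Cyc1 (0.62, 0.0409) rose as well. The fifth was Cox5b of complex IV (0.61, 0.0442), which the rule for named genes did not cover. In 4 of the 10 genes, not including Cyc1, every MitolΔ/Δ library lay above every control library, against 8.17% of tested genes. Summed over the 10 genes, the level was 7991, 7910, 6575 and 6262 in MitolΔ/Δ libraries 1 to 4 and 6056, 5035, 5032 and 4513 in control libraries. MitolΔ/Δ libraries 1 and 2 were again the highest, as for Cycs itself. When each library was left out in turn, Cox7a2 kept its call in 7 of 8 fits, Uqcrc1 and Uqcrh in 3, Cyc1 in 2 and Cox5b in 1, and control library 2 was the 1 whose removal ended the Cox7a2 call (adjusted p = 0.0604). Among the 8 fits that kept all libraries, the main fit included, Cox5b passed in 5, and Cox7a2, Uqcrc1, Uqcrh and Cyc1 in all 8.

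**Figure D4:**
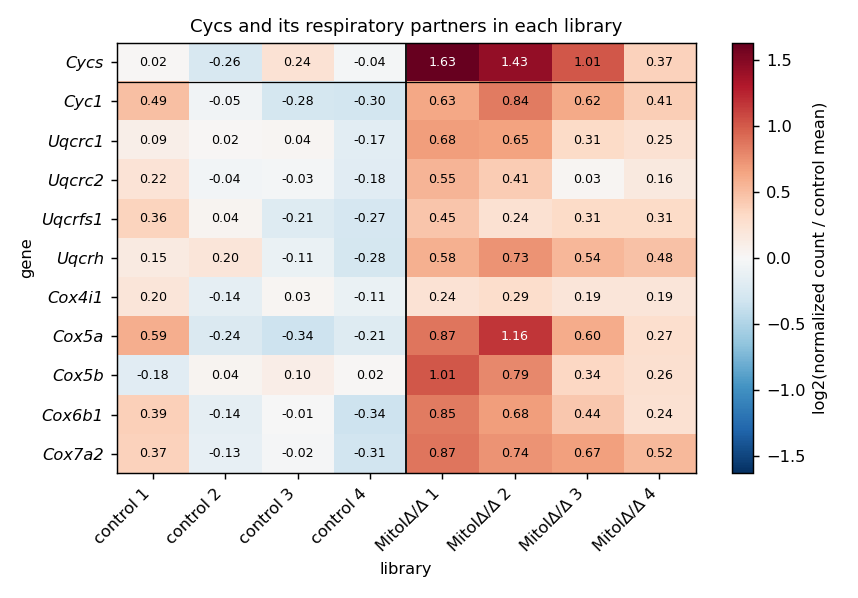
Cycs and the 10 genes for its respiratory partners (rows) in each library (columns), as the log2 of the normalized count over the mean of the control libraries. Red is above and blue below that mean. Cycs runs from 0.37 to 1.63 in the MitolΔ/Δ libraries, the latter being the largest value of the map, and every partner gene is above 0 in all 4 of them. Control library 1 is also above 0 for every partner except Cox5b. For Cyc1 it lies above MitolΔ/Δ library 4 (0.49 against 0.41).

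None of 3 tested inflammatory caspases passed by edgeR or DESeq2. Casp1, the caspase of the inflammasome, had the lowest p of them and was the 1 with an unadjusted p under 0.05 (log2 fold change -0.56, edgeR adjusted p = 0.169). Among partners of Casp8, 1 of 12 tested genes of the death receptor complex rose, where 4.68% of all tested genes did. This gene was Casp8ap2, which was named for binding Casp8 and also acts in histone gene expression. It was at 563 ± 96.8 against 345 ± 59.0 normalized counts (SD, n = 4 each), with a log2 fold change of 0.69 (edgeR adjusted p = 0.0224), and 3 of 8 fits that left out a library kept the call, which was lost without MitolΔ/Δ libraries 1, 2 or 3 or control libraries 2 or 4 (adjusted p up to 0.0721). DESeq2 also called Tnfsf10, the gene of the death ligand TRAIL, higher (log2 fold change 0.71, adjusted p = 0.0176, by edgeR 0.0773). Traf2 and Tnfrsf1a did not pass by either tool although every MitolΔ/Δ library lay above every control library. Bid went the other way, with MitolΔ/Δ libraries at 250 to 298 and control libraries at 301 to 422. It did not pass either (log2 fold change -0.25, edgeR adjusted p = 0.283, DESeq2 adjusted p = 0.345). Every MitolΔ/Δ library lay above every control library in 3 of the 12 genes and below in 1, against 8.17% and 7.18% of tested genes. Of the 12, 6 had a log2 fold change above 0 and 6 below, with a median of 0.0016. Tnfsf10, Traf2, Tnfrsf1a and Bid were named after their values were seen. Of the PIDDosome partners of Casp2, neither Cradd (0.53, adjusted p = 0.0744) nor Pidd1 (0.31, 0.278) passed by edgeR, whereas DESeq2 called Cradd (0.0277).

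Of 5 tested genes that modulate the apoptosome or attach heme to cytochrome c, 1 passed narrowly, where 4.68% of all tested genes were higher at the threshold. That was Cse1l, a nuclear export receptor that also helps Apaf1 to exchange its nucleotide (1135 ± 158 against 855 ± 69.7 normalized counts, log2 fold change 0.39, edgeR adjusted p = 0.0495). Its call held in 4 of 8 fits that kept all libraries, the main fit included. It held in 1 of 8 fits that left out a library, the one without MitolΔ/Δ library 4 (adjusted p up to 0.134 in the others). DESeq2 also called Ptma of this list higher (log2 fold change 0.49, adjusted p = 0.0216, by edgeR 0.0666), which the rule for named genes did not cover. Of 10 tested genes for other IAPs and IAP antagonists, beside the same share of 4.68%, Birc5 rose (334 ± 111 against 120 ± 49.2, log2 fold change 1.44, adjusted p = 0.0194). Birc5 encodes survivin, a member of the IAP family that serves in the chromosomal passenger complex of dividing cells. Its call was lost without MitolΔ/Δ library 2 or control library 2 (adjusted p up to 0.0645). Of 12 tested caspase substrates and execution genes, beside the same 4.68%, Lmnb1, the lamin B1 gene, rose from 1043 ± 233 to 2181 ± 652 normalized counts (1.04, adjusted p = 0.0154), a call lost without control library 2 (0.0538).

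Upstream of cytochrome c release, 2 of 11 tested BCL2 family genes rose by edgeR, where 4.68% of all tested genes did. DESeq2 also called Bax higher (log2 fold change 0.45, adjusted p = 0.0488, by edgeR 0.0972) and Bmf lower (-0.86, adjusted p = 0.0465, by edgeR 0.0863). The rule for named genes covered neither. Bok, a pore-forming relative of Bax and Bak1, was at 93.9, 89.4, 43.0 and 28.6 normalized counts in MitolΔ/Δ libraries and at 25.1, 10.6, 16 and 14.4 in control libraries (log2 fold change 1.94, edgeR adjusted p = 0.0207). It ranked the MitolΔ/Δ libraries as Cycs did, library 1 highest and library 4 lowest. Bcl2l11, which encodes the BH3-only activator BIM, was at 358, 294, 305 and 298 against 210, 211, 171 and 224 (0.61, adjusted p = 0.0212), with MitolΔ/Δ libraries close to each other and all above the control libraries. The Bok call was lost without MitolΔ/Δ libraries 1 or 2 or control libraries 2 or 4 (adjusted p up to 0.0682), and the Bcl2l11 call without MitolΔ/Δ library 1 or control libraries 2 or 3 (up to 0.0618).

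The start regions of the members whose libraries did not overlap between groups, Cycs and Casp8, are shown as the 250 bases before the RefSeq start (build GRCm38.p6). Whether base composition goes with the change in counts was not tested. The Cycs window held 23 CG dinucleotides at 64% GC and 1 match to the cyclic AMP response element TGACGTCA, in capitals, 169 bases before the start, a match found in 1.55% of 32851 such windows. Of the members that did not pass the test, Casp9, Diablo and Apaf1 held more CG dinucleotides (25, 30 and 42). Casp2 (17), Casp6 (11) and the windows of Xiap (1 to 13) held fewer. The Casp8 window held 5 CG dinucleotides at 39.6% GC, close in CG number to the median window (6, at 52.4% GC), and no match to any of the 6 motifs searched on both strands. These were TGACGTCA, the NRF1 core, the E2F forms TTTCCCGC and TTTGGCGC, the E-box CACGTG, and TGACGTGG, the core of an unfolded protein response element. Among the other members, Casp2 held the NRF1 core 23 bases before its start (3.74% of windows) and TTTCCCGC at 97 bases (0.895%), Xiap held TGACGTGG at 164 bases (0.563%) in 1 of its 3 windows, and CACGTG and TTTGGCGC, in 6.02% and 0.417% of windows, were in none of the 8.
Cycs, chr6:50566570-50566819, minus strand: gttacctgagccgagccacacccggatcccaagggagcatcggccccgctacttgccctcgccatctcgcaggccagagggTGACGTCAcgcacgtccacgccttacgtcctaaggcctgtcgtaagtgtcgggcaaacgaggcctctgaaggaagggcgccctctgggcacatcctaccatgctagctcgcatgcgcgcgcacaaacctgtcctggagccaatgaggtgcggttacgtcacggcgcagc
Casp8, chr1:58802252-58802501, plus strand: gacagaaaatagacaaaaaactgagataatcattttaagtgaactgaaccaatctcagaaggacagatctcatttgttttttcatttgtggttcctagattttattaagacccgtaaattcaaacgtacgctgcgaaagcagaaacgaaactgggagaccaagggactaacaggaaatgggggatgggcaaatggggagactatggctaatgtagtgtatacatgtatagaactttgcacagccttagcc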

How the data were processed

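RNA from 100 sorted HSCs per library was turned into cDNA and tagmented with the Nextera XT kit, which does not mark strand, and read as 75 bp single ends. The deposited file holds raw counts per gene, which the authors made with STAR, SAMtools and Subread on mm39 per the labels and their methods (the annotation and strand setting are not given in the sources used here). Of 23094 rows, 1029 without a gene symbol (0.335 to 0.467% of counts) were left out. No row sums to less than 11.

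Counts were tested with edgeR 4.0.16 (R 4.3.3; TMM, filterByExpr, quasi-likelihood, group as the only term, Benjamini-Hochberg over 16444 genes, threshold 0.05), as the study fitted condition alone. Normalized counts use DESeq2 1.42.0 size factors, and single genes have a 2-sided exact permutation test over 70 arrangements. The Diablo to Xiap ratio used a pseudocount of 0.5, and likeness log2 CPM with a prior count of 2. Per-kilobase levels use GENCODE release 39 exons on GRCm39, the build of the files. Promoter windows are from RefSeq on GRCm38.p6, where all 8 genes matched. Alternatives were other scalings and filters, DESeq2, limma-voom 3.58.1, the replicate number as a block and each library left out. Fits were tested on simulated data. Replicate pairs differed beyond sampling noise (chi-square per degree of freedom 5.84 to 24.5). Libraries with the same number did not deviate together (r = 0.080, -0.070, 0.053 and 0.067), so numbers were not taken as pairs.

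The 8 genes and all lists were chosen with earlier results of these data known. Named were the 8 genes, Marchf5, up to 4 genes per pathway list past the threshold by lowest p (or the 1 or 2 with the lowest p), up to 3 per marker list and the 3 genes most like each member. Some genes that this rule names are not reported here.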

Additional observations from a re-analysis of the deposited data

How the results depend on the processing

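The direction of Cycs, Casp8, Apaf1, Casp9 and Xiap was the same in every fit run. Cycs was past the threshold in the main fit and all 7 alternatives that kept 8 libraries (adjusted p 0.00074 to 0.0371) and in 4 of 8 that left 1 out. With DESeq2, 2315 genes, 2 of the 8 members and 22 pathway genes passed. With the replicate number as a block, 1652 genes, 2 members (Cycs, and Casp8 at an adjusted p of 0.0454) and 17 pathway genes passed, and the ratio of Diablo to Xiap stayed short of the threshold (0.18, exact sign-flip p = 0.625), though only MitolΔ/Δ libraries 1 and 3 correlated best with the control library of their own number. Leaving out 1 library gave 359 to 2501 genes, 0 to 2 members and 1 to 22 pathway genes. Values near 0 changed sign: Diablo at -0.047 with upper-quartile scaling, Casp6 at 0.0015 as a difference of log2 values, and with a library left out the log2 fold changes of Casp2 (-0.0044 to 0.15), Casp6 (-0.109 to 0.062) and Diablo (-0.066 to 0.089) and the differences in normalized count of Casp6 (-11.6 to 8.21) and Diablo (-6.20 to 9.20). The cause of these shifts was not tested, beyond the fewer libraries in each such fit. Diablo, Cycs and Casp6, at 55.3 to 205 normalized counts, rest on the fewest reads of the 8.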

Other observations

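Markers of other blood cells were set beside the members. The summed level of 7 red cell genes was 978, 1006, 3459 and 1679 normalized counts in MitolΔ/Δ libraries 1 to 4 and 782, 742, 628 and 389 in control libraries, with 1 of 4 tested genes, the beta globin gene Hbb-bt, past the threshold (log2 fold change 1.29, edgeR adjusted p = 0.0442, lost without MitolΔ/Δ libraries 1, 2 or 3 or control libraries 2 or 3). DESeq2 called 0 of these 4, and 3 of 4 were higher at an unadjusted p under 0.05. Over all tested genes, 8.43% passed by edgeR in either direction, and 26.4% had an unadjusted p under 0.05. MitolΔ/Δ library 3, the highest in that sum, had the lowest Casp8 level of its group, 919, and a Cycs level of 134, below libraries 1 and 2. Neutrophil genes summed to 485 to 1023 in MitolΔ/Δ and 405 to 616 in control libraries, B lineage genes to 136 to 150 and 145 to 204, T cell genes to 189 to 259 and 172 to 200, and mast cell and basophil genes to 11.4 to 27.5 and 11.3 to 28.7, and 0 of the 6 tested genes of these 4 lists passed the threshold by edgeR. At an unadjusted p under 0.05 there was 1, the neutrophil granule gene Prtn3, which DESeq2 called higher (adjusted p = 0.0150) and which makes up most of the neutrophil sum. The neutrophil genes S100a8 and S100a9, which the filter kept out of the edgeR fit and which were named after their values were seen, had lower values in MitolΔ/Δ libraries. S100a8 was at 1.57, 0, 0 and 0 normalized counts in MitolΔ/Δ libraries and at 0, 31.9, 19.8 and 51.2 in control libraries (DESeq2 adjusted p = 0.0284), and S100a9 was at 0 in all 4 MitolΔ/Δ libraries and at 2.64 to 21.3 in control libraries. Their part in the Cycs and Casp8 values was not tested.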
